A study of Mus musculus with 18 samples.

Results

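The 8 genes Trp53inp1, Phlda3, Pidd1, Aen, Perp, Ei24, Apaf1 and Tnfaip8 have been linked to p53 and cell death and lie outside the Bcl2 family. They were taken by symbol, with every probe set of the Mouse430_2 array listed under that symbol, which gave 14 probe sets of 45101 on the array. All 8 genes were among the 10916 of 18194 genes tested, each read by its brightest probe set. Expression was measured in the mouse line TKO, labelled as telomere dysfunctional, on 18 arrays. One kind of cell expressed p53ER, a fusion of p53 with the estrogen receptor that works only once 4-hydroxytamoxifen (4-OHT) is added, and the other kind was uninfected. Each kind was sampled at 0 h, at 4 h with vehicle and at 4 h with 100 nM 4-OHT, with 3 arrays in each of these 6 groups. The 4 h time was chosen by the study to catalogue candidate direct targets of p53. Both kinds of cell are the TKO line, and no cells infected without the fusion are among the labels, so p53ER and the infection itself cannot be told apart when p53ER and uninfected cells are compared. Replicates are not stated to be separate cultures, so p-values reflect only the variation among the arrays at hand, possibly technical, and their number limits the precision.

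p53 is a transcription factor that binds DNA as a tetramer and raises the transcription of genes that arrest the cycle, repair DNA or kill the cell. Its death programme is best known for Bcl2 family members that open the mitochondrial outer membrane, but it also reaches genes at the plasma membrane, in the endoplasmic reticulum, in the nucleus and in the caspase machinery. Cytochrome c released from mitochondria binds Apaf1, which assembles into the apoptosome and activates caspase 9, while Pidd1 assembles a separate platform for caspase 2.

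Promoters are shown for the genes whose change passed a test or whose window held a p53 half-site, the decamer that p53 binds in pairs. RefSeq windows of 300 bases (250 before the start, 50 after it; GRCm38.p6) were found for 5 of the 8 genes, and none was used for Trp53inp1, Perp or Tnfaip8. The search took exact matches to the p53 half-site consensus of 10 letters, which reads the same on both strands. Such a match was present in 8.36% of 32851 windows, and in those of 2 of the 5 genes, Ei24 and Aen. Capitals below mark the match, and Phlda3, which has none in its window, is shown because its change was the clearest of the 8. The runs for Phlda3 (chr1:135765835-135766084, plus strand) and Ei24 (chr9:36797335-36797584, minus strand) are the 250 bases before the start. That for Aen (chr7:78895927-78895956, plus strand) is the match with 10 bases on each side.
Phlda3: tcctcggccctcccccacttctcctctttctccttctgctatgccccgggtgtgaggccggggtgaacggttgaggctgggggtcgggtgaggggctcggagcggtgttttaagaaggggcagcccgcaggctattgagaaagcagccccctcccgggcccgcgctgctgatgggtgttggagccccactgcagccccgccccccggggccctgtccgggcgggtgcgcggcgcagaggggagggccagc
Ei24: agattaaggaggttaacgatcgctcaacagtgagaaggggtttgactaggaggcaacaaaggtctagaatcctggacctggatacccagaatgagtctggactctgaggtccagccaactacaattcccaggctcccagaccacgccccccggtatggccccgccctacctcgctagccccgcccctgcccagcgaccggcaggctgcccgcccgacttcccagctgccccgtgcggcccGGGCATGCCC
Aen: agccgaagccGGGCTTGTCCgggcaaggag
The Ei24 match fills the 10 bases next to the start. Aen has 2 annotated starts, and its match begins at position 11 from the first and at -121 from the second. A match describes the letters in the window and does not show binding.

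All values below are log2 of the scaled array signal plus an offset of 3.93, and a difference of 1 is a doubling of that sum. For dim genes the offset makes differences and folds smaller. Before scaling, trimmed means of the arrays lay between 47.5 and 148, and 3 arrays stood apart on the first principal component (23.9% of the variance). They were replicate 1 of p53ER cells with vehicle, replicate 2 of uninfected cells at 0 h and, at a shorter distance, replicate 3 of p53ER cells at 0 h. The second component (21.8%) separated replicate 3 of every group. All 8 mesenchymal markers were in the tested set. Their summed scaled signal was 32000 to 62000 per array, against 171 to 297 for the 8 epithelial markers. Of the epithelial markers 3 were bright enough to be tested, Epcam (mean log2 signal 6.75), Krt8 (5.34) and Krt5 (4.71). Cdh1 and Dsp were not among them. All 5 neural markers and 4 of the 5 blood markers on the array were tested too, so being tested does not mark a cell type. Their sums were 178 to 276 and 207 to 308 per array. The summed mesenchymal markers were 37900 to 48100 in p53ER cells with 4-OHT and 37400 to 54100 with vehicle. As a check of the activation, limma called 2 genes (0.0183% of those tested) for 4-OHT against vehicle in p53ER cells, both p53 targets: Mdm2 rose by 2.92 (SE 0.41, adjusted p = 0.0329) and Pmaip1 by 3.38 (SE 0.52, adjusted p = 0.0352). Cdkn1a differed by 2.19 (SE 0.49) and Ccng1 by 2.11 (SE 0.56), and neither passed the threshold in this fit. With the replicate number as a block, Cdkn1a rose past it (limma adjusted p = 0.00816).

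In p53ER cells all 8 genes had a higher mean after 4 h of 4-OHT than after 4 h of vehicle, by 0.30 to 2.60 with a median of 0.92, against a median of -0.01 over all genes, of which 48.1% were higher. Limma called 0 of the 8 after adjustment, and 7 of 8 were higher at an unadjusted p under 0.05, as were 1.93% of all genes tested. For 6 of the 8, each of the 3 arrays with 4-OHT lay above each of the 3 with vehicle, which held for 3.39% of all genes. Within each replicate number the 4-OHT array lay above its vehicle array for 8 of 8 genes, and 12.2% of all genes were higher in all 3 numbers. The median difference of the 8 was 0.82, 0.68 and 1.26 in replicates 1, 2 and 3. In uninfected cells the same agent gave differences of -0.18 to 0.28 with a median of 0.02, and limma called 0 of the 8, with 0 at an unadjusted p under 0.05. Over all genes tested in uninfected cells limma called 0% and 0.77% had such an unadjusted p. In bulk RNA, fewer cells carrying a transcript and less of it per cell cannot be told apart.

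**Figure D1:**
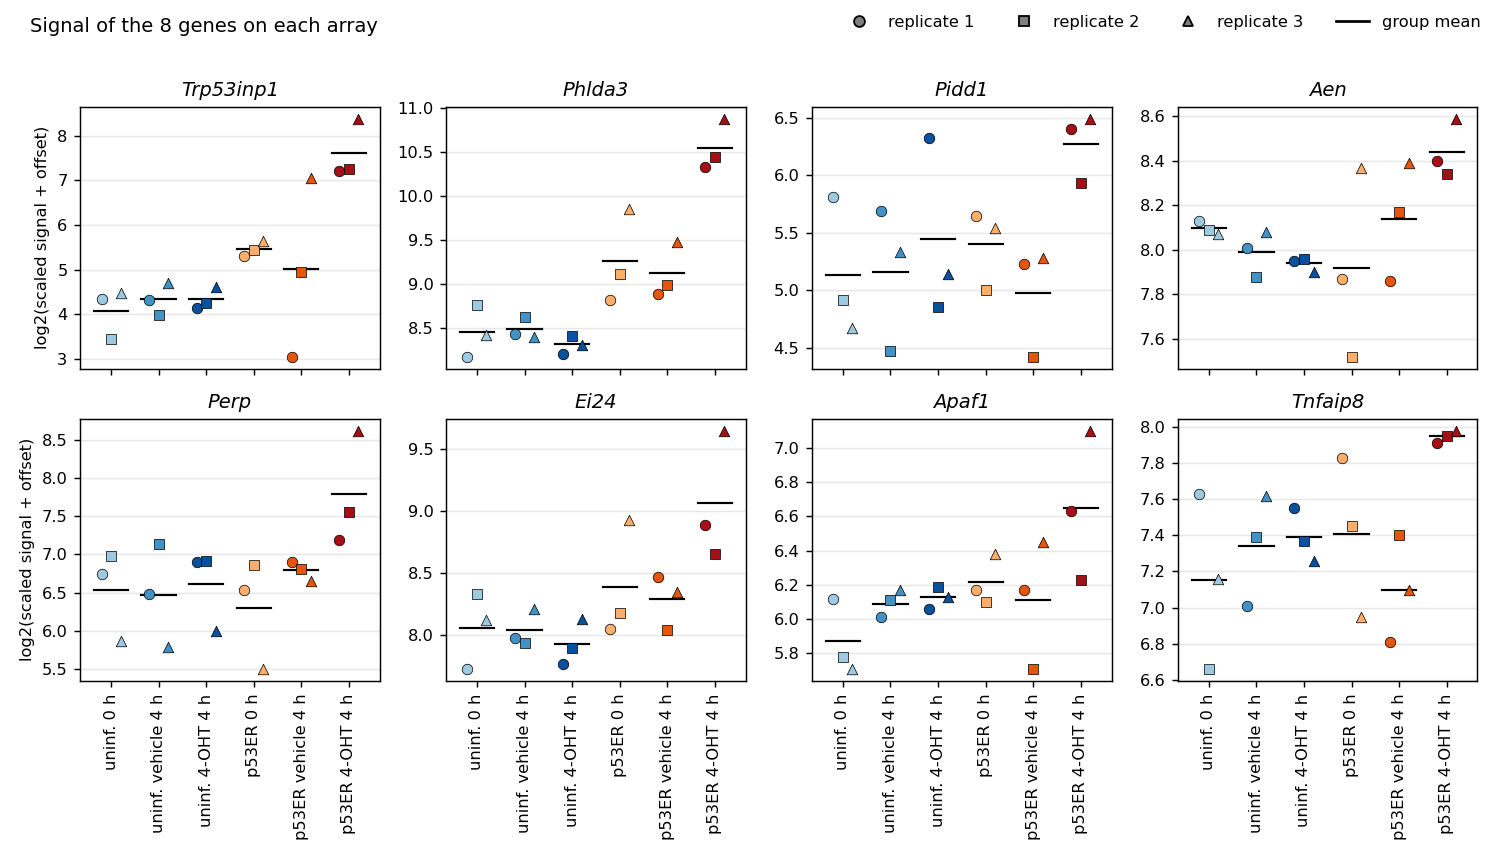
log2(scaled signal + offset) of each of the 8 genes (vertical axis, own scale per panel) on all 18 arrays, by group along the horizontal axis; symbols give the replicate number and lines the group mean of 3 arrays. The 3 arrays of p53ER cells with 4-OHT lie above all 15 others for Trp53inp1, Phlda3, Perp and Tnfaip8.

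**Figure D2:**
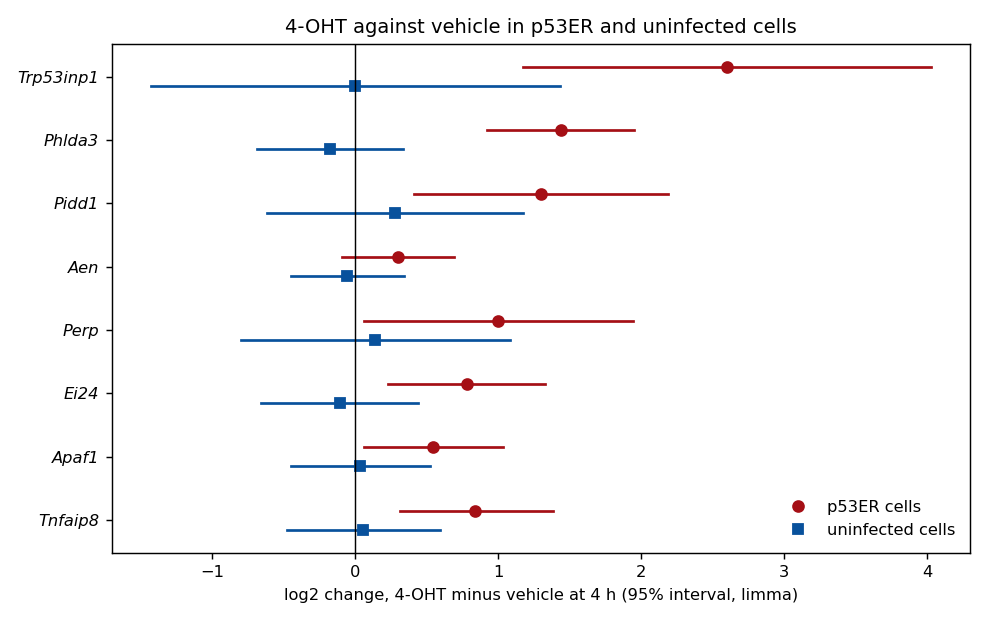
log2 change with 4-OHT against vehicle at 4 h (horizontal axis) in p53ER cells (circles) and uninfected cells (squares), with 95% intervals from the limma fit. Changes are 0.30 to 2.60 in p53ER cells and -0.18 to 0.28 in uninfected cells, and the intervals of the 2 kinds of cell overlap for 7 of the 8 genes.

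Phlda3, a protein with a pleckstrin homology domain that competes with Akt for membrane lipids and so restrains this survival kinase, had the most regular response. Its log2 signal in p53ER cells with 4-OHT was 10.33, 10.44 and 10.88, in replicate order here and below. With vehicle it was 8.88, 8.99 and 9.48, and at 0 h it was 8.81, 9.11 and 9.85. In uninfected cells it lay between 8.17 and 8.76 on all 9 arrays, so the 3 arrays with activated p53ER were the highest of the 18 and the other p53ER arrays came next. Against vehicle the mean was higher by 1.44 (SE 0.24, 2.70-fold; limma adjusted p = 0.0682), rank 3 by p among 10916 genes. With the replicate number as a block, the fit took out a shift shared by all arrays of that number. Phlda3 then rose past the threshold (limma adjusted p = 0.00816), where this fit called 0.0733% of all genes. The paired differences were 1.46, 1.45 and 1.40, the narrowest range of the 8 genes, against -0.23, -0.21 and -0.10 in uninfected cells. Without the 3 arrays that stood apart the difference was 1.32 and passed as well (limma adjusted p = 0.0437). It also passed without vehicle replicate 3 (1.62, limma adjusted p = 0.0358) and in none of the other 5 fits that left out 1 array.

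Trp53inp1, a stress protein that works with the kinase Hipk2 on p53 itself and also takes part in autophagy, had the largest difference and the widest spread. With 4-OHT its log2 signal in p53ER cells was 7.21, 7.26 and 8.38. With vehicle it was 3.05, 4.94 and 7.06, and at 0 h it was 5.31, 5.44 and 5.64. The vehicle arrays thus ran from below every uninfected array (3.44 to 4.70 on 9 arrays) to close to the 4-OHT arrays, without overlapping these. The mean difference from vehicle was 2.60 (SE 0.67, 6.05-fold), with a limma adjusted p of 0.888. Within replicate numbers it was 4.16, 2.31 and 1.32, and with no offset the mean difference was 2.96. The lowest vehicle array, replicate 1, had a scaled signal of 4.35, close to the offset of 3.93, and was one of those that stood apart. Without it the difference was 1.61 and did not pass. Without the highest, replicate 3, it was 3.62 and passed (limma adjusted p = 0.0142). Against 0 h, where the arrays agreed more closely, the difference was 2.15 (SE 0.67), with 1.90, 1.82 and 2.75 within numbers. In uninfected cells the paired differences were -0.18, 0.27 and -0.09.

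Pidd1, the death domain protein that binds Cradd and caspase 2 in the PIDDosome, had a log2 signal of 6.40, 5.93 and 6.49 with 4-OHT in p53ER cells, against 5.23, 4.42 and 5.28 with vehicle. Those groups did not overlap, and the difference was 1.30 (SE 0.42, 2.46-fold; limma adjusted p = 0.998). The paired differences of 1.18, 1.51 and 1.22 were close to each other. Among uninfected arrays with 4-OHT, however, replicate 1 reached 6.32, above the second p53ER array, and replicate 1 was the highest of the 3 in every uninfected group. With 4-OHT the p53ER and uninfected groups therefore overlapped, although each p53ER array was above the uninfected array of its number (6.32, 4.85 and 5.14). That difference was 0.84 (SE 0.42), with an unadjusted limma p of 0.0639, or 0.0105 with the replicate number as a block, and an adjusted p of 0.568 in the blocked fit.

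Aen, a nuclear exonuclease named for enhancing apoptosis, moved least on its brightest probe set. Its log2 signal was 8.40, 8.34 and 8.59 with 4-OHT, 7.86, 8.17 and 8.39 with vehicle and 7.87, 7.52 and 8.37 at 0 h in p53ER cells. The third arrays with vehicle and at 0 h reached into the range of the 4-OHT group, so the groups overlapped. The difference from vehicle was 0.30 (SE 0.19, 95% interval -0.09 to 0.69), and its unadjusted limma p of 0.127 was the only one of the 8 above 0.05. Without p53ER vehicle replicate 1 the difference was 0.16. The uninfected arrays lay within 7.88 to 8.13, below all 3 of the 4-OHT arrays.

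Perp, a tetraspan protein of the plasma membrane and desmosomes that was found as a p53 effector, had a log2 signal of 7.19, 7.55 and 8.62 with 4-OHT in p53ER cells. With vehicle it was 6.90, 6.81 and 6.65, and at 0 h it was 6.53, 6.86 and 5.50. All 3 arrays with 4-OHT were above the other 15, but the paired differences from vehicle were 0.29, 0.74 and 1.97, the last being the widest. In the uninfected groups the third arrays were the lowest, at 5.86, 5.78 and 6.0. The mean difference from vehicle was 1.00 (SE 0.44, 2-fold; limma adjusted p = 0.998). Without p53ER 4-OHT replicate 3 it was 0.58, and without the third replicate of every group 0.51. Its desmosomal partner Jup, or plakoglobin, differed by 0.88 (SE 0.25) in the same comparison.

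Ei24, a membrane protein of the endoplasmic reticulum found as a p53-induced gene and since linked to autophagy, had a log2 signal of 8.89, 8.66 and 9.65 with 4-OHT in p53ER cells. With vehicle it was 8.47, 8.04 and 8.35, below all 3, and at 0 h it was 8.05, 8.18 and 8.93. The highest 0 h array, replicate 3, overlapped the 4-OHT group and was one of those that stood apart. The difference from vehicle was 0.78 (SE 0.26, 1.72-fold; limma adjusted p = 0.998), with paired values of 0.42, 0.62 and 1.30. Without p53ER 4-OHT replicate 3 it was 0.49. In uninfected cells Ei24 lay between 7.73 and 8.33, and its paired differences were -0.21, -0.04 and -0.08.

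Apaf1, the scaffold of the apoptosome, had a log2 signal of 6.63, 6.23 and 7.10 with 4-OHT and of 6.17, 5.71 and 6.45 with vehicle in p53ER cells. The groups overlapped, although each 4-OHT array was above its own vehicle array, by 0.47, 0.52 and 0.65. The difference was 0.54 (SE 0.23, 1.46-fold; limma adjusted p = 0.998), and it was 0.32 without p53ER 4-OHT replicate 3.

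Tnfaip8, a protein with a fold related to death effector domains that is most often described as an inhibitor of apoptosis, had almost the same log2 signal on the 3 arrays with 4-OHT, 7.91, 7.95 and 7.98. With vehicle it was 6.81, 7.40 and 7.10, and at 0 h it was 7.83, 7.45 and 6.95. No other array exceeded the lowest of the 4-OHT group, but the first 0 h array came within 0.08 of its partner. The difference was 0.84 (SE 0.25, 1.79-fold; limma adjusted p = 0.998) against vehicle and 0.54 (SE 0.25) against 0 h.

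**Figure D3:**
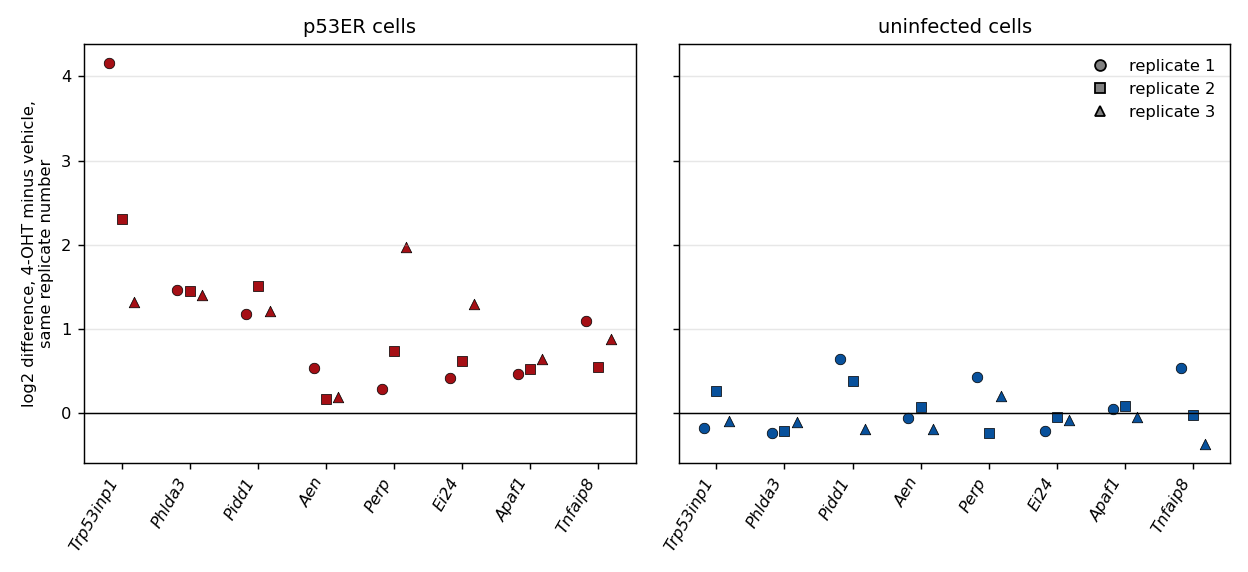
Difference in log2 signal between the 4-OHT and vehicle arrays of the same replicate number (vertical axis) for each gene, in p53ER cells (left) and uninfected cells (right). All 24 differences are above 0 in p53ER cells, with Phlda3 at 1.40 to 1.46 and Trp53inp1 at 1.32 to 4.16.

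The test of whether 4-OHT acted differently in the 2 kinds of cell asked more of the data, since it combines 4 groups. The difference of the effects was positive for 8 of 8 genes, from 0.36 to 2.60 with a median of 0.88, with 49.5% of all genes positive. Limma called 0 of the 8 and 0% of all genes, and 4 of the 8 were positive at an unadjusted p under 0.05, as were 0.87% of all genes. These 4 were Phlda3 at 1.61 (SE 0.34), Trp53inp1 at 2.60 (SE 0.95), Ei24 at 0.89 (SE 0.37) and Tnfaip8 at 0.79 (SE 0.36). Phlda3 had rank 4 by p, with a limma adjusted p of 0.593. Over 12 alternative settings its limma adjusted p ran from 0.0504 to 0.89, with 0.0676 for the replicate block, and passed the threshold in 0 of them. No gene of the 8 was thus shown to respond differently in the 2 kinds of cell by this test.

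Against p53ER cells at 0 h, which share the 4-OHT arrays with the comparison above, 4-OHT gave differences of 0.44 to 2.15, positive for 8 of 8 genes and for 44.9% of all genes. Limma called 0 of the 8 and 0.0183% of all genes, and 6 of the 8 were higher at an unadjusted p under 0.05, against 2.1% of all genes. The groups did not overlap for 5 genes, as for 4.56% of all genes: Trp53inp1, Phlda3, Pidd1, Perp and Tnfaip8. Perp differed by 1.49 (SE 0.44), its lowest 0 h array being replicate 3, and Aen by 0.52 (SE 0.19). Phlda3 differed by 1.29 (SE 0.24, limma adjusted p = 0.119) and rose past the threshold with the replicate number as a block (limma adjusted p = 0.0128), where 0.174% of all genes did. It also passed without p53ER 0 h replicate 3 (1.59, limma adjusted p = 0.0259). Vehicle for 4 h left the genes at -0.44 to 0.49 from 0 h in p53ER cells and at -0.11 to 0.25 in uninfected cells. Limma called 0 of the 8 and 0% of all genes in either. At an unadjusted p under 0.05 were 0 of the 8 in both, against 3.05% and 5.64% of all genes.

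Comparing the 2 kinds of cell with 4-OHT, which uses the same p53ER arrays again, all 8 genes were higher in p53ER cells, by 0.51 to 3.28 with a median of 0.99, while 50.4% of all genes were higher. Phlda3 rose by 2.24 (SE 0.24, 4.74-fold; limma adjusted p = 0.000667), first by p among all genes, and was the only gene of the 8 called, where limma called 0.0733% of all genes. It stayed past the threshold in 12 of 12 alternative settings and in all 6 fits that left out 1 array, at 2.08 to 2.35. The groups did not overlap for 7 of the 8, Pidd1 being the exception, against 5.49% of all genes, and 7 were higher at an unadjusted p under 0.05, against 2.27%. Trp53inp1 differed by 3.28 (SE 0.67, limma adjusted p = 0.155) and Ei24 by 1.14 (SE 0.26, limma adjusted p = 0.266). Both passed with the replicate number as a block, with limma adjusted p = 0.0333 and 0.0375, so that 3 of the 8 were called by that fit, against 0.147% of all genes. Trp53inp1 was bright enough to be tested only through the p53ER arrays with 4-OHT. Its mean over the other 5 groups was 4.65, below the lowest mean of any gene tested, 4.66. In the unfiltered fit over all probe sets, neither of its probe sets passed in this comparison (limma adjusted p = 0.163 and 0.433).

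The same comparison before activation gave smaller differences. At 0 h Trp53inp1 was higher in p53ER cells by 1.38 (SE 0.67) and Phlda3 by 0.81 (SE 0.24), with no overlap of the groups for either, as for 2.24% of all genes, while the 6 others differed by -0.23 to 0.35. With vehicle Phlda3 differed by 0.63 (SE 0.24), again without overlap, against 3.83% of all genes, and Trp53inp1 by 0.68 (SE 0.67). The second Trp53inp1 probe set, 1416927_at, differed less, by 0.53 (SE 0.49) at 0 h and -0.01 (SE 0.49) with vehicle, and its groups overlapped in both. Limma called 0 of the 8 in either comparison, at 0% and 0.00916% of all genes; Phlda3 alone of the 8 had an unadjusted limma p under 0.05, 0.00408 at 0 h and 0.0185 with vehicle, where 1.16% and 1.39% of all genes were higher at that level. For Perp and Aen the 0 h difference had the opposite sign, -0.23 (SE 0.44) and -0.18 (SE 0.19).

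**Figure D4:**
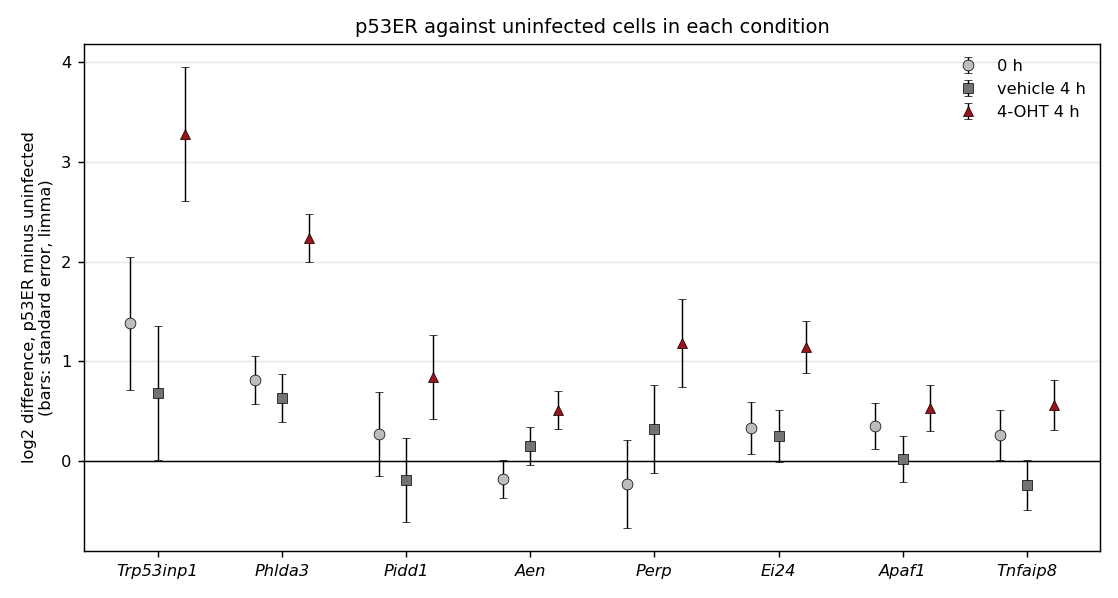
Difference in log2 signal between p53ER and uninfected cells (vertical axis; bars are limma standard errors) at 0 h, with vehicle and with 4-OHT. The 4-OHT difference is the highest of the 3 for every gene, from 0.51 for Aen to 3.28 for Trp53inp1, and at 0 h Phlda3 stands at 0.81 and Trp53inp1 at 1.38.

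Set against the mean of the other 5 groups, which uses all 18 arrays, p53ER cells with 4-OHT were higher for 8 of 8 genes, by 0.42 to 2.97, where 48.9% of all genes were higher. These 5 groups include uninfected cells and 0 h arrays, so 4-OHT, the kind of cell and time cannot be told apart here. Each of the 8 had an unadjusted limma p under 0.05, as did 2.49% of all genes in that direction. Limma called 2 of the 8, against 0.174% of all genes. Phlda3 rose by 1.83 (SE 0.19, 3.55-fold; adjusted p = 0.000305) and was first by p. Trp53inp1 rose by 2.97 (SE 0.52, 7.83-fold, limma adjusted p = 0.0374). Its mean over the other 5 groups, 4.65, lay below the lowest mean of any gene tested, 4.66. It thus passed the filter on dim genes only through the group tested here. In the fit over all probe sets, which has no such filter, its probe set 1416926_at also passed (limma adjusted p = 0.0281). Its second probe set, 1416927_at, was higher by 1.71 (SE 0.38) and did not pass in that fit (limma adjusted p = 0.19). The Trp53inp1 call stayed in 3 of 18 fits that left out 1 array: without p53ER 0 h replicate 3 (adjusted p = 0.0449), p53ER vehicle replicate 1 (0.00225) or p53ER vehicle replicate 3 (0.00032). In the others its limma adjusted p ran from 0.0506 to 0.605, the last without p53ER 4-OHT replicate 3. It was 0.00381 without the 3 arrays that stood apart and 0.0661 with no offset. All 3 arrays of the group were above all 15 others for 4 of the 8 genes, Trp53inp1, Phlda3, Perp and Tnfaip8, and for 0.467% of all genes. Ei24 was higher by 0.93 (SE 0.20) and not called (limma adjusted p = 0.117), a call that depended on the setting. It passed without p53ER 0 h replicate 3 (0.98, limma adjusted p = 0.042), without the 3 arrays that stood apart (1.03, 0.0332) and with array weights (0.85, 0.0157). Without p53ER 4-OHT replicate 3 it was 0.63 with a limma adjusted p of 0.996.

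The other probe sets of 4 genes gave a second reading. The second Trp53inp1 probe set, 1416927_at, had a log2 signal of 5.82, 5.85 and 6.50 with 4-OHT and of 3.62, 4.99 and 5.10 with vehicle in p53ER cells. Its groups did not overlap either, as for 5.01% of all probe sets, and its difference of 1.48 (SE 0.49) was smaller than the 2.60 of 1416926_at. Aen had 4 probe sets: 1423957_at differed by 0.30 (SE 0.20), 1450506_a_at by 0.35 (SE 0.19) and 1437373_at by 0.62 (SE 0.54). The fourth, 1451186_at, was dim and differed by -0.72 (SE 0.65). On 1450506_a_at the 3 arrays with 4-OHT, at 7.41, 7.55 and 7.40, were above all 15 others, which held for 0.246% of all probe sets. The second Apaf1 probe set, 1450223_at, differed by 0.36 (SE 0.41), and the dim second Tnfaip8 probe set, 1442753_at, by 0.23 (SE 0.53). Of the 14 probe sets, 13 thus had a higher mean with 4-OHT, and limma over all probe sets called 0 of them and 0.00887% of the table in this comparison.

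**Figure D5:**
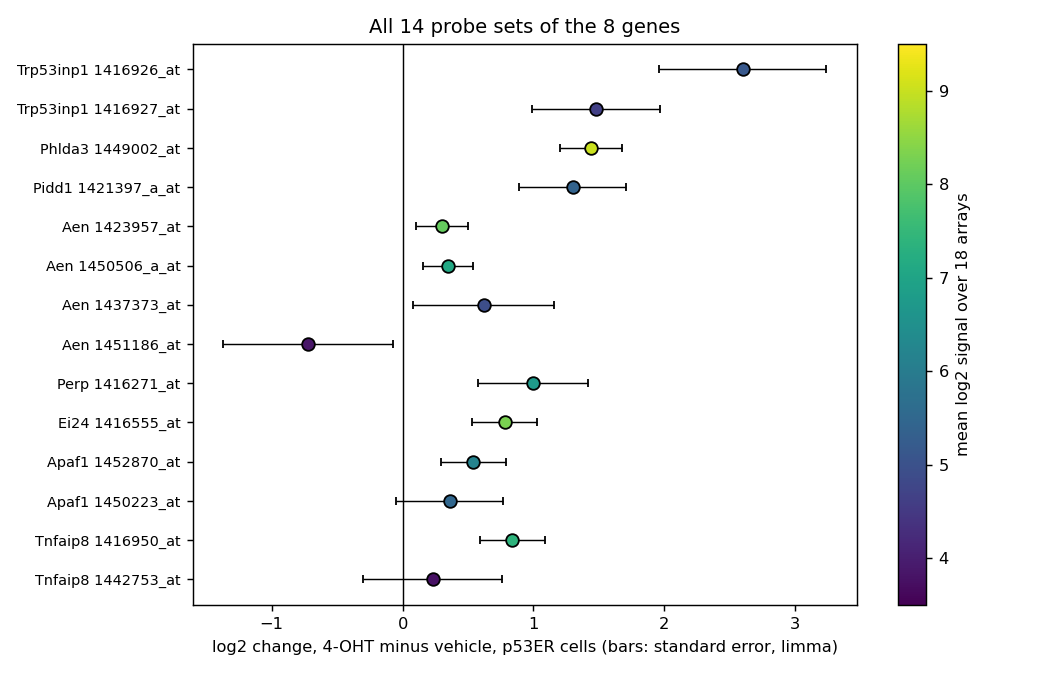
log2 change with 4-OHT against vehicle in p53ER cells (horizontal axis; bars are limma standard errors) for each of the 14 probe sets, coloured by mean log2 signal. The probe set below 0, Aen 1451186_at at -0.72, is one of the dimmest.

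The genes around these 8 in their pathways gave other counts in 4-OHT against vehicle in p53ER cells. Among the apoptosome and caspase genes, 11 of 15 were tested, 5 were higher and 6 lower, with a median of -0.05, and limma called 0, while 1 had an unadjusted p below 0.05. The largest differences there were Xiap, a caspase inhibitor, at 1.09 (SE 0.75), the mitochondrial nuclease Endog at -0.48 (SE 0.52) and Parp1, a caspase substrate, at -0.41 (SE 0.18). Among the partners and paralogs of the 8 genes, 19 of 24 were tested, 6 were higher and 13 lower, with a median of -0.04, and limma called 0, while 1 had an unadjusted p below 0.05. The largest were Jup at 0.88 (SE 0.25), the paralog Tnfaip8l1 at -0.46 (SE 0.41) and the p53 kinase Dyrk2 at 0.44 (SE 0.24); Cradd and Casp2, which bind Pidd1, stood at -0.28 (SE 0.33) and -0.09 (SE 0.20). Against the mean of the other 5 groups Jup rose by 1.06 (SE 0.19, limma adjusted p = 0.0374). Among 16 other p53 death targets, 13 were tested, 10 were higher and 3 lower, with a median of 0.21, and limma called Pmaip1, the BH3-only protein Noxa, while 3 were higher and 0 lower at an unadjusted p below 0.05. The next were Ddit4 at 0.93 (SE 0.43) and the lipid transfer protein Pltp at 0.91 (SE 0.37). The median over all genes was -0.01, and 1.93% of them were higher and 1.29% lower at an unadjusted p below 0.05.

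The genes closest in pattern to each of the 8 were taken by Pearson r over the 18 arrays among all genes tested, as a description, since arrays share groups and replicate numbers. For Trp53inp1 they were Ccng1 (0.967), Mdm2 (0.915) and Cdkn1a (0.914). For Phlda3 they were Ei24 (0.903), Cdkn1a (0.896) and Mdm2 (0.884), and for Ei24 they were Phlda3 (0.903), Sh3pxd2a (0.886) and Nxn (0.884). Of the 8, then, Trp53inp1 and Phlda3 had reference p53 targets among their 3 nearest genes, and Phlda3 and Ei24 had each other first. For Pidd1 they were Tiam1 (0.793), Zfp365 (0.733), the mouse gene of the study's title, and Nmur1 (0.721). For Aen they were Zmat3 (0.843), itself a p53 target, Frmd8 (0.836) and Smurf1 (0.791). For Perp they were Rflnb (0.862), Mettl6 (0.832) and Ckap2 (0.810). The lists differed from gene to gene for the last 2: Apaf1 had Trim11 (0.847), B3galnt2 (0.840) and Anxa8 (0.832), and Tnfaip8 had Vamp4 (0.844), Cav2 (0.832) and Polk (0.822). Within the 8, r ran from 0.229 for Ei24 with Tnfaip8 to 0.903 for Phlda3 with Ei24.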

How the data were processed

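RNA had been hybridised to 18 Affymetrix mouse arrays. The deposited values were linear signal intensities that the authors obtained with MAS5, per the submitters' processing notes, with no version given. Each array was scaled to the median of the 18 trimmed means (78.6) and converted to log2(signal + 3.93), with an offset of 5% of that level. The level chosen shifts all values alike and leaves every difference as it is.

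Of 45101 probe sets, 34958 were listed with 1 gene. Each gene was read by its probe set of highest mean, and the upper 60% (10916 of 18194 genes) were tested. Limma (version 3.58.1, R 4.3.3; trended, robust prior) fitted 6 group means over all arrays, with two-sided p-values adjusted by Benjamini-Hochberg over all genes tested and a threshold of 0.05. A second fit covered all probe sets. On simulated data for 4-OHT against vehicle in p53ER cells (10916 genes), 40.9% of genes changed by 1 on the log2 scale and 86.6% of those changed by 2 were called. The simulation drew independent noise for each array, without the shift of the third replicates or the arrays that stood apart. These shares therefore do not give the power in the real data, and a gene not called is not shown to be unchanged.

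Deviations of same-numbered arrays correlated above 0.1 in every pair for 4-OHT against vehicle (0.209 to 0.449 in p53ER cells, 0.306 to 0.618 in uninfected cells), for 4-OHT against 0 h in p53ER cells (0.271 to 0.467) and between the cells with 4-OHT (0.174 to 0.466). What the numbers stand for is not given in the labels. For these comparisons, a fit with the number as a block is given beside a result whose call it changes; for the others it stands with the alternatives.

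The members, the gene lists and several alternatives were chosen with earlier results of these data known. All 8 members were named with all their probe sets, along with 4 reference targets, the list genes called or among the 3 largest changes in 4-OHT against vehicle in p53ER cells, and the 3 genes closest in pattern to each member. Alternatives were quantile normalization, other offsets, filters, probe sets, samples and priors, array weights and leaving out arrays.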

Additional observations from a re-analysis of the deposited data

How the results depend on the processing

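In the 5 comparisons involving p53ER cells with 4-OHT, the change of every one of the 8 genes kept its direction under all alternatives run (142 of 142 values for 4-OHT against vehicle). Several of these alternatives could not turn it. The replicate block, other filters or priors, all probe sets and only the groups compared leave the estimate as it is. The values follow the brightest probe set of each gene, so Aen 1451186_at, at -0.72 against vehicle, is not among them. Counts of calls by limma moved more, and for these differences the cause was not tested. For 4-OHT against vehicle in p53ER cells, 2 genes and 0 of the 8 were called; 1 of the 8, Phlda3, was called with quantile normalization, the larger offset, the replicate block, array weights, or without the 3 arrays that stood apart. Genes called there were 1 with no offset or the stricter filter, 4 with the larger offset, all probe sets or array weights, 8 with the replicate block and 0 with only the groups compared. Leaving out 1 array gave 0 to 5 genes and 0 to 2 of the 8. For 4-OHT against 0 h (2 genes, 0 of the 8), genes called were 1 with no offset or the stricter filter, 7 with all probe sets, 19 with the replicate block, 0 with only the groups compared, 28 with array weights and 6 without the arrays that stood apart; 1 of the 8 was called with the block, the weights or without those arrays. Leaving out 1 array gave 0 to 2 genes and 0 to 1 of the 8. For p53ER against uninfected cells with 4-OHT (8 genes, 1 of the 8), genes called were 5 with the stricter filter, only the groups compared or without the third replicates, 16 with the replicate block and 32 with array weights; of the 8, 3 were called with the block or the weights and 2 with only the groups compared or without the arrays that stood apart. Leaving out 1 array gave 1 to 9 genes and 1 of the 8 each time. Against the other 5 groups (19 genes, 2 of the 8), genes called were 12 with no offset, 5 with the stricter filter, 37 with the replicate block and 4 without the third replicates; 1 of the 8, Phlda3, was called with no offset, the stricter filter or without the third replicates, and 3 with the replicate block, array weights or without the arrays that stood apart. The gene added in those 3 settings was Ei24 (limma adjusted p = 0.0145 with the block, 0.0157 and 0.0332). Leaving out 1 array gave 3 to 19 genes and 1 to 3 of the 8. Pidd1 and Trp53inp1 did not pass the stricter filter, and no fit with only the groups compared exists for this comparison.

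In the other 6 comparisons, the count of the 8 stayed at 0 under the alternatives run. Genes called, 0 in the difference of the 4-OHT effect, became 1 with all probe sets or the replicate block and 2 with array weights; in uninfected cells 2 were called for 4-OHT against vehicle with array weights, and in both leaving out 1 array gave 0 to 1. For vehicle against 0 h, 1 gene was called in p53ER cells with array weights or without the arrays that stood apart (0 to 1 leaving out 1 array), and 1 in uninfected cells with all probe sets. Between the kinds of cell at 0 h, 1 gene was called with quantile normalization, the larger offset, the stricter filter, without the arrays that stood apart or without the third replicates (0 to 1 leaving out 1 array); with vehicle, the 1 gene became 0 with no filter, all probe sets, the replicate block, only the groups compared or without the arrays that stood apart (0 to 2 leaving out 1 array). Small changes turned sign in the comparisons without p53ER cells with 4-OHT. In uninfected cells with 4-OHT, Aen was at 0.01 without the third replicates. For vehicle against 0 h in p53ER cells, Ei24 was at 0.01 with array weights, 0.08 without the arrays that stood apart and 0.14 without the third replicates, Phlda3 at 0.07 with array weights and 0.28 without the arrays that stood apart, and Trp53inp1 at 0.63 without those arrays. In uninfected cells, Perp was at 0.31 and Pidd1 at -0.24 with array weights; without the arrays that stood apart, Perp was at 0.17, Pidd1 at -0.08, Ei24 at 0.12, Tnfaip8 at -0.06 and Trp53inp1 at -0.07, and without the third replicates Pidd1 was at -0.28. At 0 h, Perp was at 0.15 with array weights and 0.40 without the arrays that stood apart, and Pidd1 at -0.04 without the third replicates. With vehicle, Apaf1 was at -0.08 with array weights, -0.01 without the arrays that stood apart and -0.12 without the third replicates, where Trp53inp1 was at -0.16. For the difference of effects, 17 of 18 pairs of same-numbered arrays correlated above 0.1. For vehicle against 0 h and the kinds of cell without 4-OHT, not every such pair did so either. The number still carried a shared shift there, since the second principal component separated the third replicates of every group. Why some pairs correlated less was not tested.

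Leaving out 1 array at a time also turned the sign of some of these uncalled changes. For 4-OHT in uninfected cells, Apaf1 ran from -0.01 to 0.07, Perp from -0.21 to 0.47, Pidd1 from -0.17 to 0.57, Tnfaip8 from -0.11 to 0.19 and Trp53inp1 from -0.18 to 0.18. For vehicle against 0 h in p53ER cells, Apaf1 ran from -0.28 to 0.09, Ei24 from -0.27 to 0.17, Phlda3 from -0.36 to 0.16 and Trp53inp1 from -1.47 to 0.54. For the same in uninfected cells, Ei24 ran from -0.18 to 0.12, Perp from -0.39 to 0.29, Phlda3 from -0.11 to 0.19, Pidd1 from -0.23 to 0.38, Tnfaip8 from -0.06 to 0.43 and Trp53inp1 from -0.07 to 0.45. Between the kinds of cell at 0 h, Aen ran from -0.40 to 0.02 and Perp from -0.56 to 0.17, and with vehicle Apaf1 ran from -0.15 to 0.22, Perp from -0.03 to 0.65, Pidd1 from -0.53 to 0.09 and Trp53inp1 from -0.34 to 1.67.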
